A study of Monodelphis domestica with 2 samples.

Results

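Receptors for neuromodulators and neuropeptides were compared across 18 cell subclasses of V1, the primary visual cortex, in a small marsupial, the gray short-tailed opossum (Monodelphis domestica). Genes were taken by symbol alone, as any gene whose symbol begins like those of the serotonin, acetylcholine, noradrenaline, histamine, opioid, cannabinoid, adenosine or neuropeptide receptors, which gave 77 of the 30800 genes in the files. Of those 30800 genes, 11590 carried a symbol, so receptors listed by identifier alone are not covered, and dopamine receptors lay outside the symbol rule. Single-nucleus RNA sequencing had been performed on 2 adult males without a treatment or a genetic change, animal 1 aged 1.5 years and animal 2 aged 2 years, with tissue of both hemispheres pooled and 2 libraries made from each animal. The animals were handled by different experimenters, so animal, age and handling cannot be told apart.

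These receptors let diffuse signals from the brainstem, hypothalamus and basal forebrain, and peptides released within the cortex, alter how cortical cells respond to fast glutamate and GABA input. Most are G protein-coupled: Gs-coupled receptors raise cyclic AMP, Gi-coupled receptors lower it and reduce transmitter release, and Gq-coupled receptors release calcium from internal stores. The nicotinic acetylcholine receptors and the serotonin receptors built from HTR3A and HTR3B are ion channels, and the natriuretic peptide receptor NPR2 is an enzyme that makes cyclic GMP.

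The deposited annotation placed 32764 nuclei (16045 of animal 1, 16719 of animal 2) in 8 glutamatergic, 5 GABAergic and 5 non-neuronal subclasses. The intratelencephalic (IT) glutamatergic neurons were IT_A to IT_D, and L5PT, L5NP, L6CT and L6b were the pyramidal tract, near-projecting, corticothalamic and deepest-layer neurons. The GABAergic subclasses Pvalb, Sst, Vip, Lamp5 and Frem1 were named for marker genes. OD, OPC, Astro, Micro and Endo stood for oligodendrocytes, their precursors, astrocytes, microglia and endothelial cells. SST, VIP and LAMP5 peaked in the subclasses of their names in both animals. FREM1 was highest in Lamp5 rather than Frem1, FEZF2, a marker listed for L5PT, in L5NP, TSHZ2, listed for L5NP, in Endo, and CCN2, listed for L6b, in Micro. PVALB had no symbol in the files. The subclass labels had been made from the expression of all genes in the same nuclei, the receptors included, so labels predicted without the receptors served as an alternative, and 96.5% of nuclei kept theirs.

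Depth set what could be seen. Libraries held 55625042 to 69706055 UMIs (unique molecular identifiers, each standing for 1 captured RNA molecule), and any pair of libraries shared 16 to 30 barcodes. Levels are given as CPM, the UMIs of a gene summed over an animal's nuclei of a subclass and scaled to the total of that sum. They are not scaled to gene length, so a gene is compared between subclasses and never with another gene. A count of 3 UMIs, taken as the limit that a count of 0 allows, equalled at most 0.0828 CPM in IT_A, 5.95 CPM in L6b, 5.66 CPM in Micro and 61.8 CPM in Endo. Endothelial values, from 29 and 36 nuclei, therefore rested on few molecules. Less RNA of a gene per nucleus and fewer nuclei of a kind that express it cannot be told apart in such sums. Intervals and limits cover counting error only.

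The receptor genes differed in the level that they reached. At least 20 CPM in the same subclass of both animals was reached by 30 of the 77 genes, and by 33.0% of all genes in the files. By family these were 6 of 9 adrenergic, 4 of 12 serotonin, 3 of 14 nicotinic, 3 of 3 histamine, 3 of 4 opioid, 2 of 2 adenosine and 2 of 2 VIP receptors, with 0 of 5 muscarinic, 0 of 5 melanocortin and 0 of 2 neuropeptide Y receptors. Just inside this limit lay HTR1F, ADORA3 and ADRB1, with 22.7, 23.9 and 25.3 CPM in the lower animal, and just outside it TACR3, CHRM3 and HTR3A, with 19.8, 19.6 and 19.6 CPM. No UMI of MC2R or MC3R, the adrenocorticotropin receptor and a hypothalamic melanocortin receptor, was counted. At the low end, 5 of the 77 genes had at most 3 UMIs in all nuclei and 15 reached 1 CPM in no subclass of both animals, among them the cannabinoid receptor CNR2, CCKAR and the vasopressin receptor AVPR1B.

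**Figure D1:**
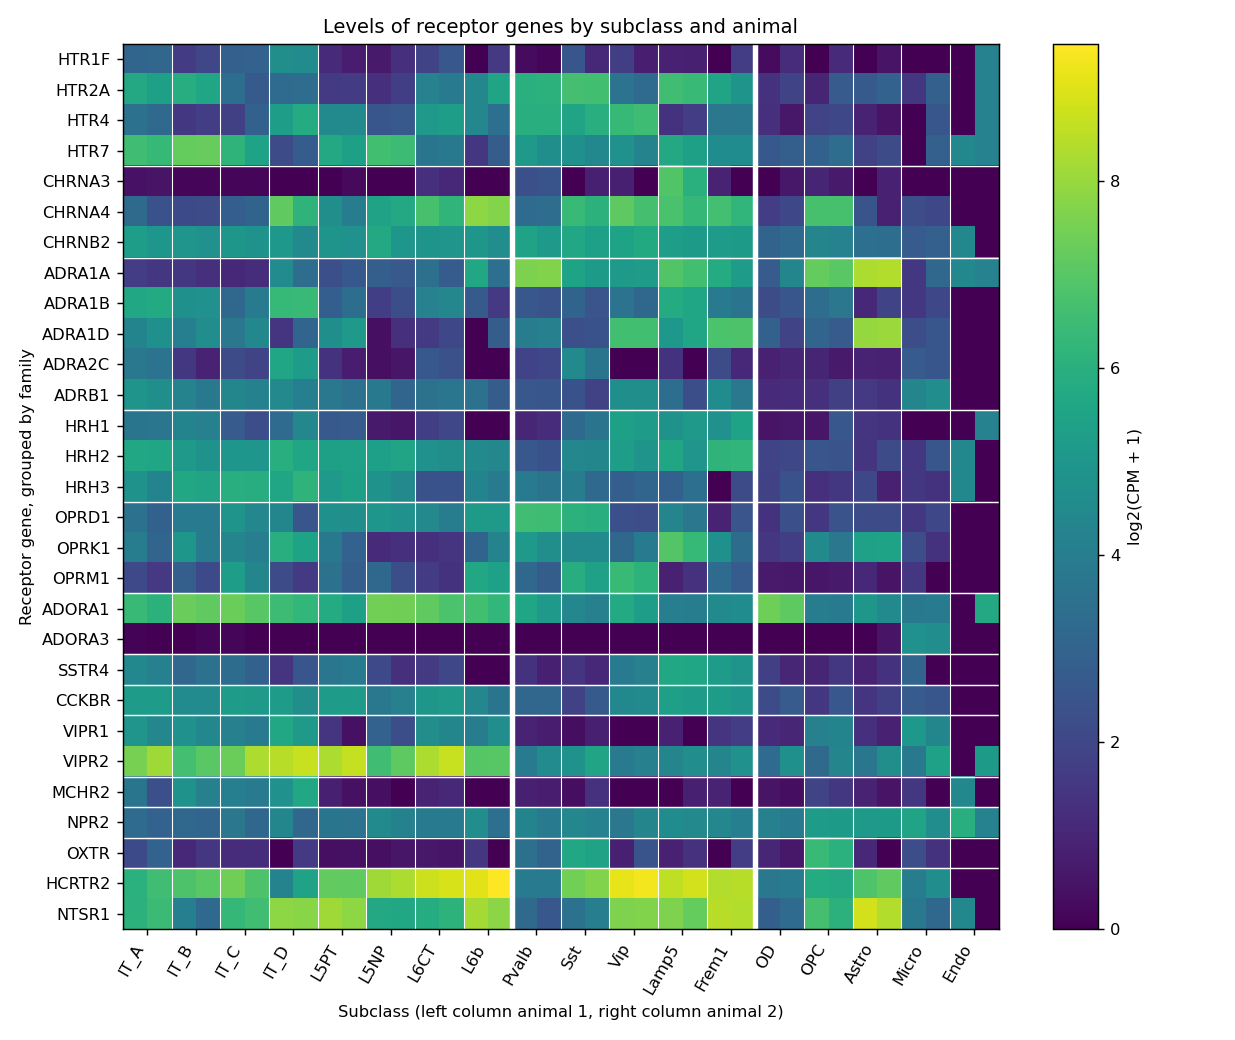
Levels of receptor genes with at least 20 CPM in a subclass of both animals (1 such gene is not shown), as log2(CPM + 1) by color, with subclasses on the horizontal axis (animal 1 left, animal 2 right) and genes on the vertical axis. ADORA3 is near 0 outside Micro, CHRNA3 is at 4.56 CPM or less outside Lamp5, and ADRA1A is high in Astro, Pvalb and OPC. Single molecules move the endothelial columns.

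Among these 30 genes, 20 had their highest level in the same subclass of both animals. The same was true of 64.4% of all genes at that level. By mean over the animals, 6 of the 30 were highest in IT_D (ADRA1B, ADRA2C, HTR1F, MCHR2, VIPR1 and VIPR2), 4 in Lamp5 (CCKBR, CHRNA3, OPRK1 and SSTR4), 4 in Vip (CHRNB2, HRH1, HTR4 and OPRM1) and 3 in Astro (ADRA1A, ADRA1D and NTSR1).

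Which receptors separate inhibitory from excitatory neurons was asked first. Summed counts of the 13 neuronal subclasses of both animals entered edgeR's quasi-likelihood test, with Benjamini-Hochberg adjustment over 16156 genes, and 55 of the 77 receptors passed its low-count filter. Of these 55, 16 were higher in GABAergic subclasses, against 20.8% of all genes tested, and 17 were lower, against 22.0%. The test compares the mean of the log levels of the subclasses of each class, and its median log2 fold change over the 55 receptors was -0.29, while the median log2 ratio of the class-mean CPM was 0.04 (0.11 over all genes tested), so the 2 summaries differed in sign. Where a gene had no UMI, in either animal, in a subclass that a comparison used, the fitted fold change depends on the prior count of the fit, and levels are given in its place. The 26 sums entered without a term for the animal, so sums of the same animal were treated as independent. The p-values measure the spread between the 2 animals within subclasses, pooled over the subclasses, and not a spread over further animals.

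The receptors higher in GABAergic neurons included both fast channels and G protein-coupled receptors. ADRA1A, a Gq-coupled noradrenaline receptor, stood at 191 and 202 CPM (animal 1 and animal 2, in this order throughout) in Pvalb, 119 and 94.6 in Lamp5, 56.2 and 35.7 in Frem1, 43.4 and 35.0 in Sst and 34.0 and 36.4 in Vip. In glutamatergic subclasses it reached 49.0 and 9.92 CPM in L6b and 22.9 and 9.49 in IT_D, and lay at 10.3 or less in the other 6. Its class means were 84.7 ± 5.60 and 8.61 ± 5.09 CPM (SD, n = 2 animals), a log2 fold change of 3.67 ± 0.15 (standard error, adjusted p = 1.2e-14 in edgeR's test). ADRA1D, of the same group of receptors, was at 109 and 113 CPM in Frem1 and 95.5 and 95.1 in Vip. Lamp5 (32.3 and 47.3) overlapped with L5PT (25.0 and 33.7). Pvalb (15.2 and 16.4) and Sst (3.95 and 4.19) lay within the range of the glutamatergic subclasses. The log2 fold change of ADRA1D was 1.98 ± 0.21 (adjusted p = 8.3e-08 in edgeR's test), and 3.41 in animal 1 alone, where L6b had no UMI of it.

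HTR2A, the Gq-coupled serotonin receptor on which psychedelic drugs act, was highest in Sst, at 101 and 95.5 CPM, with 93.7 and 81.4 in Lamp5, 63.0 and 66.4 in Pvalb and 44.6 and 28.8 in Frem1. Vip, at 11.1 and 8.91 CPM, stood apart from these 4 subclasses. IT_B (58.9 and 45.9 CPM) and IT_A (51.3 and 41.0) overlapped with the GABAergic range, while L5PT (2.06 and 2.24) and L5NP (1.50 and 2.36) were far lower. The class difference was 1.88 ± 0.14 on the log2 scale (adjusted p = 1.7e-10 in edgeR's test). OPRK1, the dynorphin receptor (1.39 ± 0.21), CHRNA4 (1.02 ± 0.13) and HTR4 (0.95 ± 0.24) also differed in this direction, and CHRNB2 by 0.34 ± 0.09.

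The other direction held VIPR1 and VIPR2, receptors for VIP and its relative PACAP. VIPR2, a Gs-coupled receptor of both peptides, lay between 93.0 CPM (L5NP, animal 1) and 409 (L6CT, animal 2) in the glutamatergic subclasses and between 13.4 and 44.9 CPM in the GABAergic ones, without overlap. Its log2 fold change was -3.41 ± 0.18 (adjusted p = 5.7e-13 in edgeR's test). VIPR1 reached 49.3 and 33.6 CPM in IT_D, 29.5 and 19.8 in IT_A and 24.4 and 19.5 in L6CT, and no more than 2.31 CPM in any GABAergic subclass of either animal. No UMI of it was counted in Vip neurons, where 3 UMIs would have been 2.37 and 2.23 CPM, and L5PT, at 1.74 and 0.344 CPM, was low within the glutamatergic class.

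ADORA1, the Gi-coupled adenosine receptor that dampens glutamate release, averaged 110 ± 13.1 CPM in glutamatergic and 28.5 ± 4.64 in GABAergic subclasses (log2 fold change -2.07 ± 0.09, adjusted p = 3.3e-14 in edgeR's test). HRH3, a Gi-coupled histamine receptor, averaged 33.7 ± 0.403 and 8.27 ± 0.152 CPM (-2.09 ± 0.18, adjusted p = 2.9e-09 in edgeR's test, and -3.36 in animal 1 alone, where Frem1 had no UMI of it). L6CT was an exception among excitatory neurons, with 4.22 CPM of HRH3 in both animals. OPRL1, the nociceptin receptor, averaged 11.6 ± 0.443 against 3.18 ± 0.308 CPM (-2.18 ± 0.17). The gastrin and cholecystokinin receptor CCKBR averaged 27.8 ± 1.12 against 20.9 ± 0.721 CPM (-0.88 ± 0.10), but not all GABAergic subclasses were low. Pvalb (7.73 and 7.81 CPM) and Sst (2.54 and 5.33) lay below every glutamatergic subclass. Vip and Frem1 lay within the glutamatergic range, and Lamp5 (39.6 and 36.4) had the highest mean of all subclasses. NTSR1, the neurotensin receptor, was called lower in GABAergic subclasses (-0.56 ± 0.10, adjusted p = 0.00012 in edgeR's test) although its class-mean CPM was higher there (148 ± 8.55 against 128 ± 7.48). Within the GABAergic class it lay at 4.95 to 15.6 CPM in Pvalb and Sst and at 351 and 333 in Frem1.

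**Figure D2:**
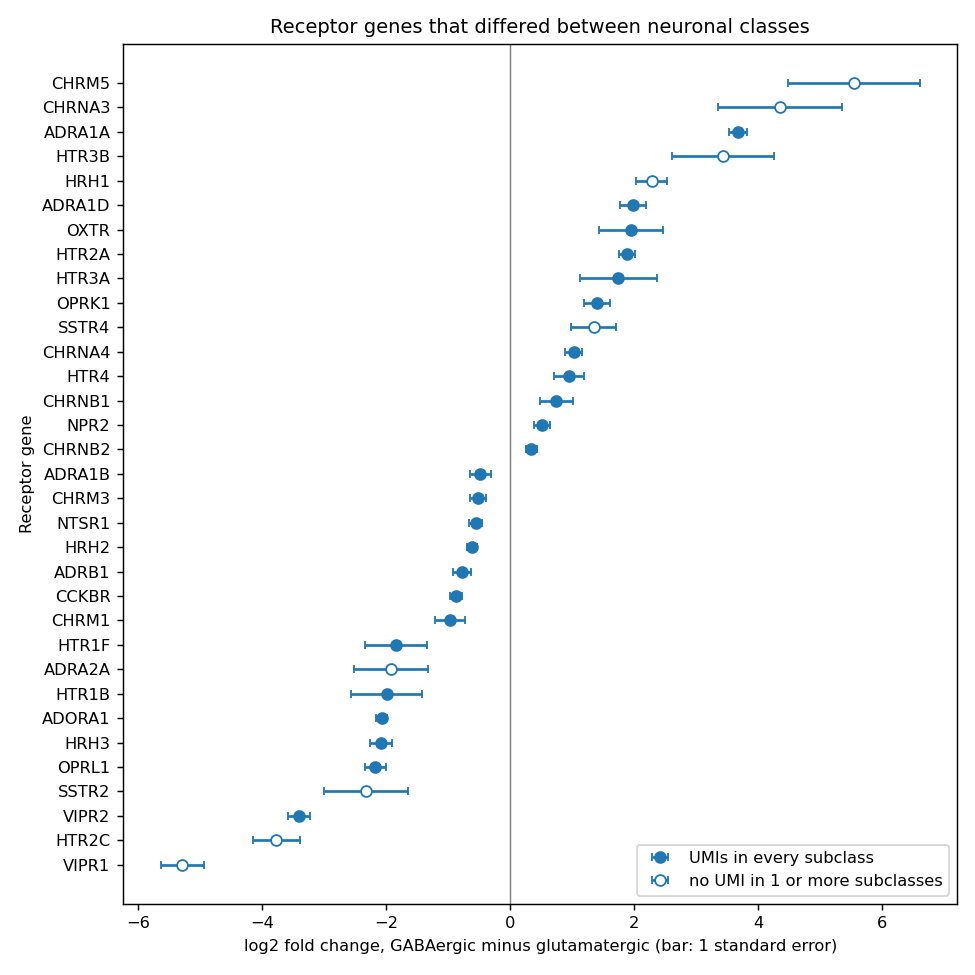
log2 fold change, GABAergic minus glutamatergic subclasses, of the 33 receptor genes called by edgeR's quasi-likelihood test, with 1 standard error. The 16 points right of 0 were higher in GABAergic subclasses and the 17 left of 0 lower, and open symbols mark genes with no UMI in at least 1 subclass, whose position depends on the prior count of the fit.

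Differences among the GABAergic subclasses were called for 38 of the 55 receptors, against 34.6% of all genes, and among the glutamatergic subclasses for 40 of 55, against 40.0%. Each subclass was then compared with the mean of the others of its class. A gene that passed the low-count filter only through the subclass where it was high had to differ, so the counts per subclass describe the receptors that passed and support nothing further. The receptors called higher were 18 of 55 in Vip (7.11% of all genes), 17 in Sst (11.0%), 15 in Lamp5 (7.90%), 14 in Frem1 (6.22%) and 11 in Pvalb (14.7%).

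Vip and Frem1 neurons shared the fast serotonin receptor and a muscarinic receptor. HTR3A and HTR3B, the subunits of the serotonin-gated channel, and CHRM5, a Gq-coupled acetylcholine receptor, fell short of the 20 CPM limit in animal 2 and were chosen after their values were seen. HTR3A stood at 30.3 and 19.6 CPM in Frem1 and 18.2 and 11.9 in Vip, and at 2.50 or less in Pvalb, Sst and Lamp5. HTR3B followed the same order, with 39.2 and 18.4 CPM in Frem1, 20.5 and 14.1 in Vip and 1.55 or less in the other 3. CHRM5 had 23.2 and 13.8 CPM in Frem1, 19.0 and 6.68 in Vip and 1.62 and 2.33 in Lamp5, and at most 0.678 CPM in any glutamatergic subclass. Animal 1 was higher than animal 2 in both Frem1 and Vip for each of the 3 genes.

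Since the 3 genes were chosen for this pattern, their levels are a description and no test is given. A UMI of HTR3A was found in 40 of 305 Frem1 nuclei (13.1%, exact 95% interval 9.54 to 17.4%), 33 of 506 Vip nuclei (6.52%, 4.53 to 9.04%) and 2 of 4047 oligodendrocyte nuclei (0.0494%), with median depths of 5898, 4824 and 1917 UMIs. By animal the Frem1 share was 16.3% and 9.35% and the Vip share 7.02% and 6.06%. In the other neuronal subclasses the share ran from 0.196% in Sst to 1.99% in L5PT, whose median depths were 5670 and 9228.5 UMIs. After every nucleus was thinned to 1000 UMIs, the shares in Frem1, Vip and oligodendrocyte nuclei were 2.30%, 1.79% and 0.0247%.

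Vip neurons carried further receptors at high levels. OPRM1, the mu opioid receptor, had 83.7 and 67.6 CPM in Vip and 59.2 and 41.5 in Sst, against 0.808 and 1.55 in Lamp5 (Vip against the others, 3.28 ± 0.30, adjusted p = 5.6e-08 in edgeR's test). HTR4, a Gs-coupled serotonin receptor, was at 79.0 and 92.1 CPM in Vip, 62.0 and 60.8 in Pvalb and 45.4 and 62.0 in Sst, and at 1.62 and 2.33 in Lamp5. HRH1, a Gq-coupled histamine receptor, was high in Vip (41.1 and 36.4 CPM), Frem1 (26.8 and 43.8) and Lamp5 (28.3 and 34.1), with the Frem1 values spanning those of the other two, and low in Sst (8.46 and 11.4) and Pvalb (1.02 and 1.30). CHRNB2, the nicotinic subunit that pairs with CHRNA4 in the brain, was highest in Vip on average (43.4 and 52.7 CPM) but spanned only 33.5 to 52.7 CPM over the GABAergic subclasses, which were not called different.

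Lamp5 neurons were marked by CHRNA3, a nicotinic subunit best known from autonomic ganglia, at 119 CPM in animal 1 and 63.6 in animal 2. Pvalb came next with 3.98 and 4.56 CPM, and the remaining 16 subclasses had 1.47 CPM or less in both animals. Against the other GABAergic subclasses the log2 difference was 6.95 ± 0.38 (adjusted p = 1.7e-10 in edgeR's test). In single nuclei, 139 of 370 Lamp5 nuclei held a UMI (37.6%, exact 95% interval 32.6 to 42.7%), with a median of 6568 UMIs, and 2 of 4047 oligodendrocyte nuclei (0.0494%). By animal the Lamp5 share was 48.2% and 28.7%, both outside the interval of the pooled nuclei. After thinning the Lamp5 share was 8.92%. Both deposited Lamp5 types carried it, at 126 and 62.7 CPM in Lamp5_1 and 113 and 64.6 in Lamp5_2, so the lower value of animal 2 recurred in each type. CHRNA3 was also called higher in GABAergic than in glutamatergic subclasses, a call that was lost in edgeR's test with labels predicted without the receptors (adjusted p = 1.00) and after thinning (adjusted p = 1.00). The log2 values were 4.35 as fitted first, 2.29 and 3.19. All depend on the prior count, since some glutamatergic subclasses (IT_D, L5NP and L6b with the deposited labels) had no UMI of it. IT_A and L6CT did hold UMIs. The Lamp5 call held under every alternative with a test. After thinning, 33 of 370 Lamp5 nuclei held a UMI, against 10 of 2143 Pvalb nuclei. A gene that passed the filter through Lamp5 alone had to differ, so the thinned call adds no support.

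OPRK1 was at 122 and 80.6 CPM in Lamp5 and at 32.8 CPM or less in each of the other GABAergic subclasses (2.46 ± 0.29, adjusted p = 1.7e-06 in edgeR's test). SSTR4, a Gi-coupled somatostatin receptor, had 50.1 and 45.7 CPM in Lamp5, 35.7 and 28.8 in Frem1 and 13.4 and 16.3 in Vip, but 1.69 and 1.14 in Sst and 1.59 and 0.781 in Pvalb. It was thus low in the Sst neurons themselves. ADRA1B, a Gq-coupled noradrenaline receptor, was at 54.9 and 47.3 CPM in Lamp5, above the 14.3 CPM that no other GABAergic subclass exceeded (2.74 ± 0.23, adjusted p = 1.1e-08 in edgeR's test).

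Sst neurons had the receptor for oxytocin. OXTR stood at 49.6 and 42.2 CPM in Sst, 10.1 and 7.03 in Pvalb and 4.46 or less in Vip, Lamp5 and Frem1 (Sst against the others, 4.34 ± 0.37, adjusted p = 9.8e-09 in edgeR's test). A UMI was found in 195 of 1020 Sst nuclei (19.1%, exact 95% interval 16.7 to 21.7%) and 7 of 4047 oligodendrocyte nuclei (0.173%). By animal the Sst share was 22.6% and 15.2%, both outside the interval of the pooled nuclei. TACR3, the neurokinin B receptor, just outside the 20 CPM limit, had at least 19.8 CPM in Sst of both animals, up to 15.6 in Vip and 6.82 and 7.29 in Pvalb, at most 0.808 in Lamp5 and no UMI in Frem1. ADRA2C, a Gi-coupled noradrenaline receptor, was at 22.0 and 11.8 CPM in Sst and 3.57 or less in the other 4, with no UMI in Vip. The deposited Sst types differed in HTR2A, which had 178 and 190 CPM in Sst_4 and 62.4 and 74.5 in Sst_1.

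OPRD1, the enkephalin-binding delta opioid receptor, was shared by the Pvalb and Sst subclasses. It had 92.3 and 90.0 CPM in Pvalb and 67.1 and 62.4 in Sst, against 18.6 and 12.4 in Lamp5, 3.95 and 3.71 in Vip and 0.892 and 4.61 in Frem1. Within Pvalb, the type Pvalb_5 reached 185 and 158 CPM and Pvalb_6 had 53.1 and 61.0. HCRTR2, the orexin receptor, showed the reverse: Pvalb held 13.5 and 14.5 CPM, against 551 and 631 in Vip, 377 and 447 in Lamp5, 327 and 343 in Frem1 and 176 and 201 in Sst (Pvalb against the others, -4.61 ± 0.25, adjusted p = 9.0e-12 in edgeR's test). HRH2, a Gs-coupled histamine receptor, was likewise low in Pvalb (4.89 and 4.17 CPM) and highest in Frem1 (69.6 and 73.8), and NTSR1 had 8.75 and 4.95 CPM in Pvalb. CHRM2, a Gi-coupled muscarinic receptor under the limit in every labelled subclass, was highest among them in Pvalb (14.0 and 9.76 CPM) and Sst (11.8 and 6.85), and no UMI of it was counted in Vip.

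**Figure D3:**
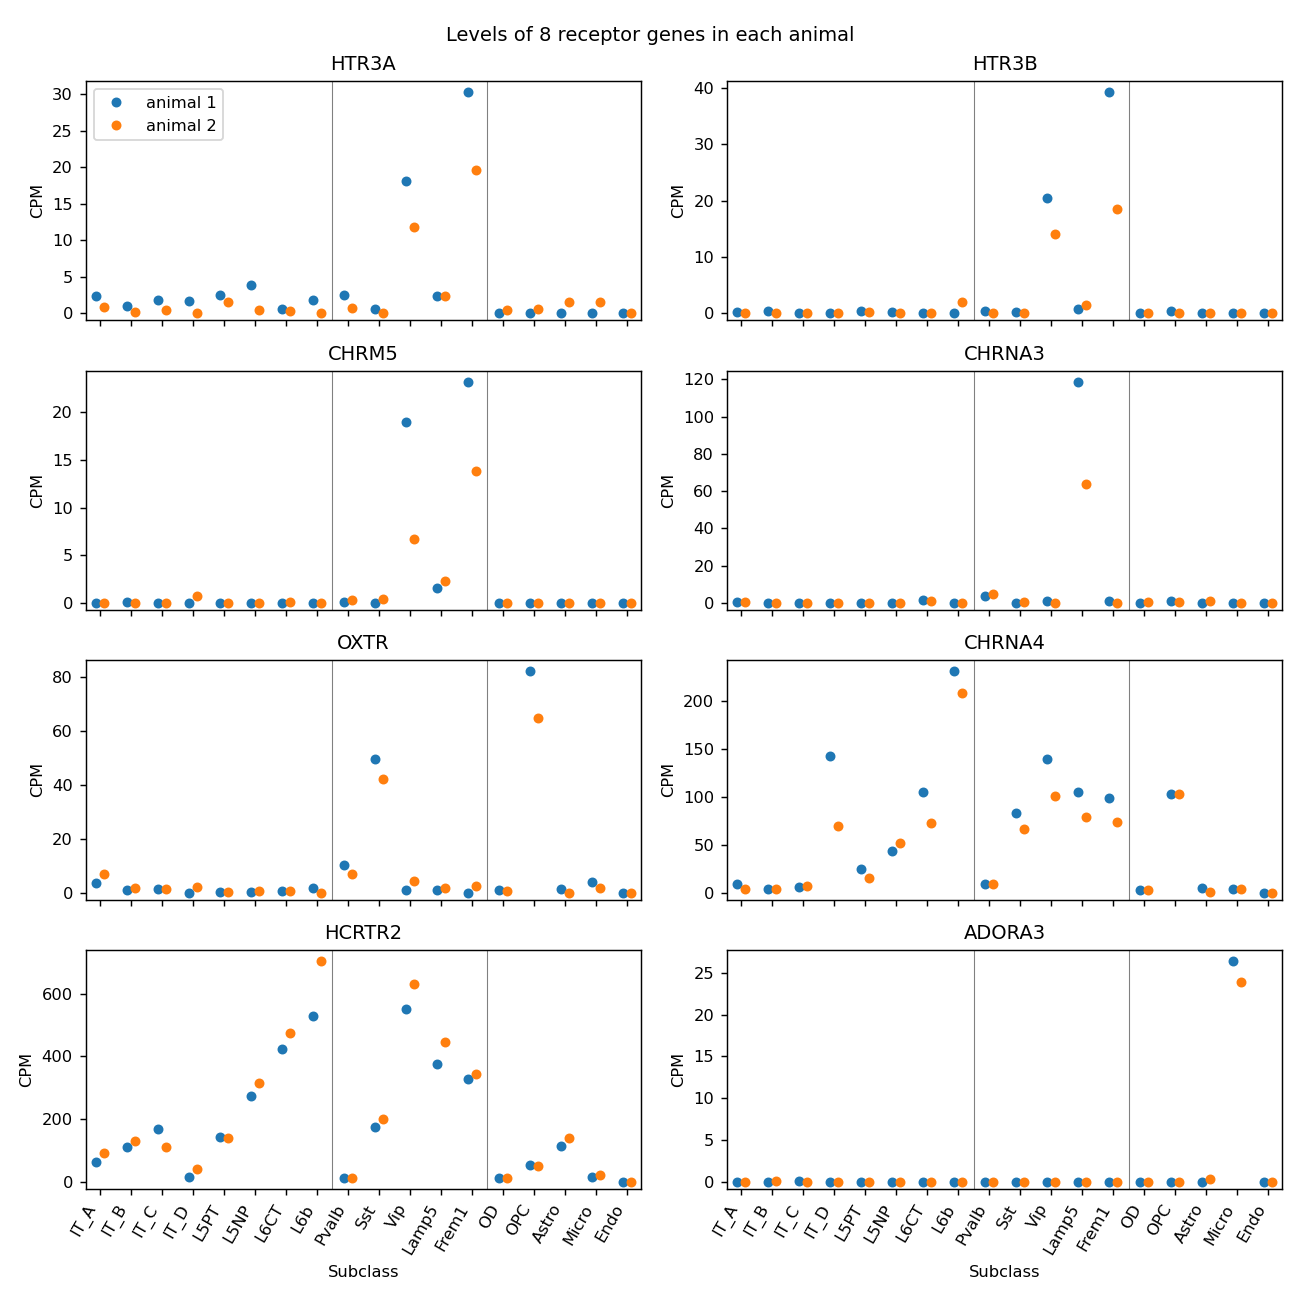
CPM of 8 receptor genes in each of the 18 subclasses, 1 point per animal, with grey lines between the glutamatergic, GABAergic and non-neuronal subclasses. HTR3A, HTR3B and CHRM5 are confined to Frem1 and Vip above 4 CPM, CHRNA3 rises to 119 and 63.6 CPM in Lamp5, and OXTR is high in Sst and OPC.

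Among the excitatory neurons, receptors called higher than in the other glutamatergic subclasses numbered 18 in IT_A (12.0% of all genes), 17 in IT_D (9.20%), 14 in IT_B (12.1%), 14 in L5PT (10.4%), 12 in IT_C (7.30%), 12 in L6CT (8.52%), 7 in L5NP (9.90%) and 7 in L6b (5.86%), each of 55 tested.

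IT_D, with 58 nuclei in animal 1 and 315 in animal 2, held the most peaks. ADRA1B had 80.9 and 81.7 CPM there, above IT_A (50.6 and 54.7) and IT_B (26.2 and 26.7), and at most 19.7 in the other 5 glutamatergic subclasses (2.89 ± 0.19, adjusted p = 2.9e-10 in edgeR's test). HTR1F, a Gi-coupled serotonin receptor, had 24.6 and 22.7 CPM in IT_D and 7.79 or less in the rest of the class (3.34 ± 0.35, adjusted p = 3.3e-07 in edgeR's test). ADRA2C was at 47.5 and 35.6 CPM, with 12.8 and 11.0 in IT_A and at most 5.09 elsewhere in the class. MCHR2, a receptor for melanin-concentrating hormone, had 26.4 and 49.2 CPM in IT_D, 27.5 and 16.4 in IT_B and 16.0 and 13.8 in IT_C, and 1.15 or less in L5PT, L5NP, L6CT and L6b. For MCHR2, IT_D and IT_B overlapped, and animal 1 was higher in IT_B.

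MC5R, a melanocortin receptor far from the limit and chosen after its values were seen, had 14.1 and 6.44 CPM in IT_D and at most 2.31 CPM in any other subclass of either animal. In IT_D of animal 1, 3 UMIs equalled 5.28 CPM. OPRK1 (61.6 and 44.4 CPM), HTR4 (38.7 and 55.6) and NTSR1 (229 and 220) were also called higher in IT_D, while HTR7 (3.52 and 5.76) and HCRTR2 (17.6 and 42.4) were called lower.

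HTR7, a Gs-coupled serotonin receptor, was highest in IT_B at 147 and 152 CPM, followed by L5NP (96.9 and 88.7), IT_A (93.5 and 80.4), IT_C (69.6 and 43.5) and L5PT (50.8 and 40.9). The values of L5NP and IT_A overlapped. L6CT, at 11.7 and 13.2 CPM, IT_D, and L6b, at 1.82 and 5.95, closed the order, and the last pair overlapped. In IT_B the log2 difference from the other glutamatergic subclasses was 2.73 ± 0.13 (adjusted p = 2.2e-12 in edgeR's test). HRH3 was at 59.5 and 58.8 CPM in IT_C, 47.5 and 69.8 in IT_D and 50.4 and 45.3 in IT_B, and these overlapped in part. OPRM1 was called higher in IT_C (38.3 and 19.1 CPM, 2.41 ± 0.22) and in L6b (49.0 and 41.7 CPM, 3.04 ± 0.37), and did not exceed 10.5 CPM in the other 6. ADRB1, a Gs-coupled noradrenaline receptor, was at 28.5 and 24.9 CPM in IT_A, against 21.1 or less in the other glutamatergic subclasses (1.08 ± 0.16, adjusted p = 2.1e-05 in edgeR's test).

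Among the glutamatergic subclasses, the orexin receptor was highest in L6b, L6CT and L5NP, and the nicotinic subunit CHRNA4 in L6b. HCRTR2 was at 530 and 704 CPM in L6b, 423 and 476 in L6CT and 274 and 315 in L5NP, and at 168 or less in IT_A to IT_D and L5PT. The L6b difference was 2.04 ± 0.16 (adjusted p = 8.9e-09 in edgeR's test) and that of L6CT 1.63 ± 0.15 (adjusted p = 3.0e-08). CHRNA4 was at 231 and 208 CPM in L6b, 143 and 69.5 in IT_D and 105 and 72.2 in L6CT, against 3.39 and 3.59 in IT_B (L6b 3.34 ± 0.24, adjusted p = 1.3e-09 in edgeR's test). L6b rested on 56 and 53 nuclei.

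L5PT neurons had 273 and 231 CPM of NTSR1 (1.79 ± 0.14, adjusted p = 4.0e-09 in edgeR's test), overlapping with L6b at 292 and 222, and IT_B had 15.8 and 8.47. VIPR2 was called higher in L5PT (310 and 395 CPM), L6CT (314 and 409) and IT_D (350 and 401), whose values overlapped, and lower in IT_B, L5NP and L6b. ADORA1 peaked in L5NP, at 171 and 168 CPM, with IT_C (162 and 126) and IT_B (158 and 141) below it in both animals, and L5PT lowest, at 55.9 and 41.1. CHRM2 had 8.07 and 8.96 CPM in L5NP and was called higher there (2.04 ± 0.38). CHRNB2 and CHRM1 did not differ by the test among the glutamatergic subclasses, nor did OPRL1.

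**Figure D4:**
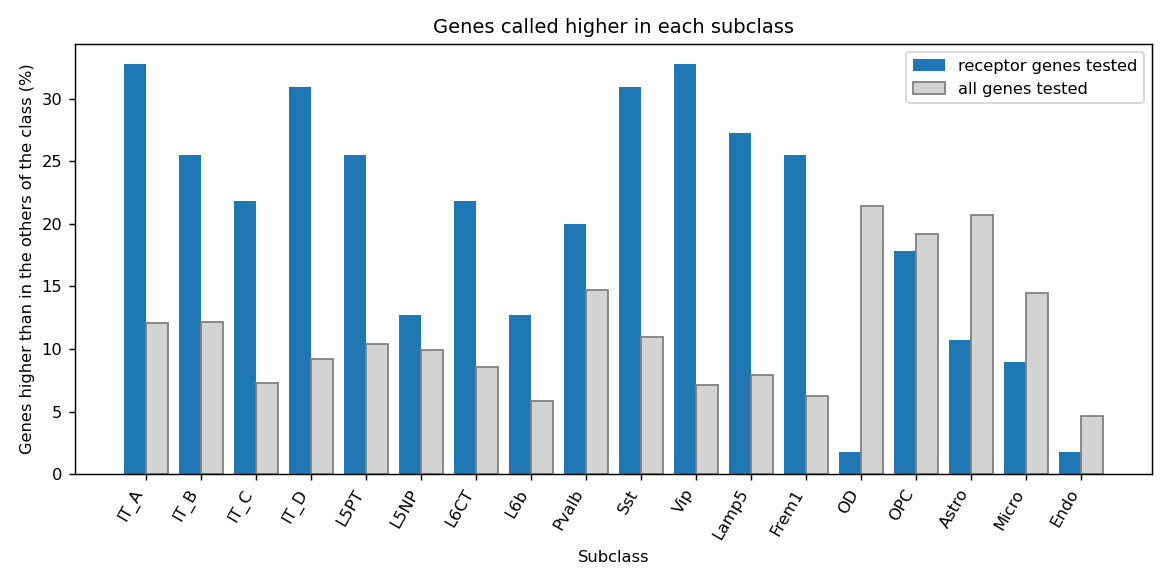
Share of the receptor genes tested (blue bars, 55 for neuronal and 56 for non-neuronal subclasses) and of all genes tested (grey bars) called higher in each subclass than in the others of its class. Receptor genes reach 18 of 55 in Vip, where 7.11% of all genes were called, and 1 of 56 in OD, where 21.4% were.

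Neurons and non-neuronal cells were compared in a fit of all 36 sums, in which 56 of the 77 receptors passed the filter and 17227 genes were tested. Neurons were higher for 26 receptors (30.2% of all genes) and non-neuronal cells for 2, among them NPR2 (14.6%). The median log2 ratio of mean CPM, neuronal over non-neuronal, was 2.11 over the 55 receptors with UMIs in both, and -0.17 over all genes tested. Without the shallow endothelial sums, an alternative chosen after seeing the data, 32 receptors were called in place of 28. Among the non-neuronal subclasses 17 of 56 differed, against 61.4% of all genes, and 19 did without the endothelial sums.

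NPR2, the receptor of C-type natriuretic peptide, averaged 14.7 ± 2.42 CPM over the neuronal and 31.5 ± 9.59 over the non-neuronal subclasses (SD, n = 2 animals), a log2 difference of -0.87 ± 0.21 (adjusted p = 0.0011 in edgeR's test). It had 61.8 and 17.3 CPM in Endo, from 3 and 1 UMIs, and 35.6 and 34.2 in OPC, and its highest subclass changed between the animals. OD, at 16.4 and 13.9 CPM, lay within the neuronal range of 6.93 to 23.6. Astro (32.5 and 34.4) and Micro (45.3 and 23.9) lay above that range.

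Of the 3 Gq-coupled noradrenaline receptors, ADRA1A and ADRA1D were high in astrocytes and ADRA1B was not, at 1.14 and 2.83 CPM. ADRA1A was at 317 and 328 CPM in Astro, above Pvalb, and at 147 and 132 in OPC, with 19.4 CPM or less in OD and Micro. ADRA1D was at 250 and 261 CPM in Astro and at 7.58 or less in OD, OPC and Micro, and no UMI of it was counted in Endo. NTSR1 was at 452 and 329 CPM in Astro and 101 and 67.2 in OPC. Its difference in Astro from the other non-neuronal subclasses was 4.87 ± 0.24 (adjusted p = 2.2e-16 in edgeR's test). Each deposited astrocyte type carried these receptors, NTSR1 at 428 and 291 CPM in Astro_1, 475 and 369 in Astro_2 and 444 and 355 in Astro_3. HCRTR2 (115 and 140 CPM) and OPRK1 (41.6 and 43.7) were also called higher in Astro.

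OPC had the oxytocin receptor and CHRNA4. OXTR was at 82.0 and 64.7 CPM in OPC and 3.77 or less in the other non-neuronal subclasses, above the Sst neurons in both animals. A UMI was found in 232 of 1343 OPC nuclei (17.3%, exact 95% interval 15.3 to 19.4%), a share of 8.94% after thinning against 3.25% in Sst. CHRNA4 was at 103 CPM in OPC of both animals, within the range of the GABAergic subclasses, and at 4.56 or less in the other non-neuronal subclasses. Receptors called higher numbered 10 of 56 in OPC (19.2% of all genes), 6 in Astro (20.7%), 5 in Micro (14.5%), 1 in OD (21.4%) and 1 in Endo (4.62%).

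Microglia were the source of ADORA3, a Gi-coupled adenosine receptor, with 26.4 and 23.9 CPM in Micro. These rested on 14 and 15 UMIs, and no other subclass exceeded 0.405 CPM. A UMI was found in 29 of 723 microglial nuclei (4.01%, exact 95% interval 2.70 to 5.71%) and in 0 of 4047 oligodendrocyte nuclei, which by the limit of 3 counts allows a share of nuclei with a UMI of up to 0.0741% (exact 95% upper bound 0.0911%). With so few UMIs outside Micro, these levels are a description and no test is given. ADRB1 (18.9 and 23.9 CPM) and VIPR1 (32.1 and 19.1) were called higher in Micro by edgeR's test. The one receptor higher in oligodendrocytes was ADORA1, at 164 and 138 CPM, against 30.8 or less in OPC, Astro and Micro (3.36 ± 0.19, adjusted p = 4.8e-15 in edgeR's test). Endo, also in that comparison, had 0 and 51.8 CPM of ADORA1, the latter from 3 UMIs.

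Some receptors under the limit still had measurable levels in neurons. Among muscarinic receptors CHRM3, Gq-coupled, ranged from 3.10 to 23.2 CPM over the neuronal subclasses, with its lowest values in Lamp5, and CHRM1 did not exceed 8.80 in neurons. NPY1R, the neuropeptide Y receptor, lay at 1.78 to 11.9 CPM in neurons and was not called among the subclasses of either neuronal class. NPY2R had 22 UMIs in all, and 2.82 and 3.04 CPM in Sst. HTR2C, a Gq-coupled serotonin receptor, was at 18.9 and 15.6 CPM in IT_C and 4.46 or less in the GABAergic subclasses, with no UMI in Vip. HTR1A, a Gi-coupled serotonin receptor, was called higher in L6CT (3.89 and 5.69 CPM) and Sst (4.79 and 4.19).

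The 3 pairs of receptors with the most alike levels over the 18 subclasses (Pearson's r of log2(CPM + 1), mean of the animals) were ADRB1 and CCKBR (0.835), MCHR2 and HTR1F (0.791) and CCKBR and HRH2 (0.772). These are descriptions over subclasses that share animals and libraries and differ in depth.

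Levels in the animals were close for most receptors, with exceptions that recurred across subclasses. VIPR2 was higher in animal 2 in all 17 subclasses with at least 10 UMIs, by a median of 1.48 times, as in IT_C, with 160 and 310 CPM. OPRM1 was higher in animal 1 in all 11, with a median ratio of animal 2 to animal 1 of 0.646. Together with ADORA3, which had only 1 such subclass, 3 of the 30 receptors went in a single direction, against 3.70% of all genes at that level. In their highest subclass, the largest ratios of animal 2 to animal 1 were those of MCHR2 (1.86) and HCRTR2 (1.33), and the smallest those of NPR2 (0.279), CHRNA3 (0.536) and OPRK1 (0.661). For CHRNA3 the libraries gave 122 and 115 CPM in animal 1 and 64.8 and 62.2 in animal 2, without overlap. Libraries of the animals did not overlap for several other receptors either, among them OPRK1, NTSR1 and HCRTR2, so this is not particular to CHRNA3.

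**Figure D5:**
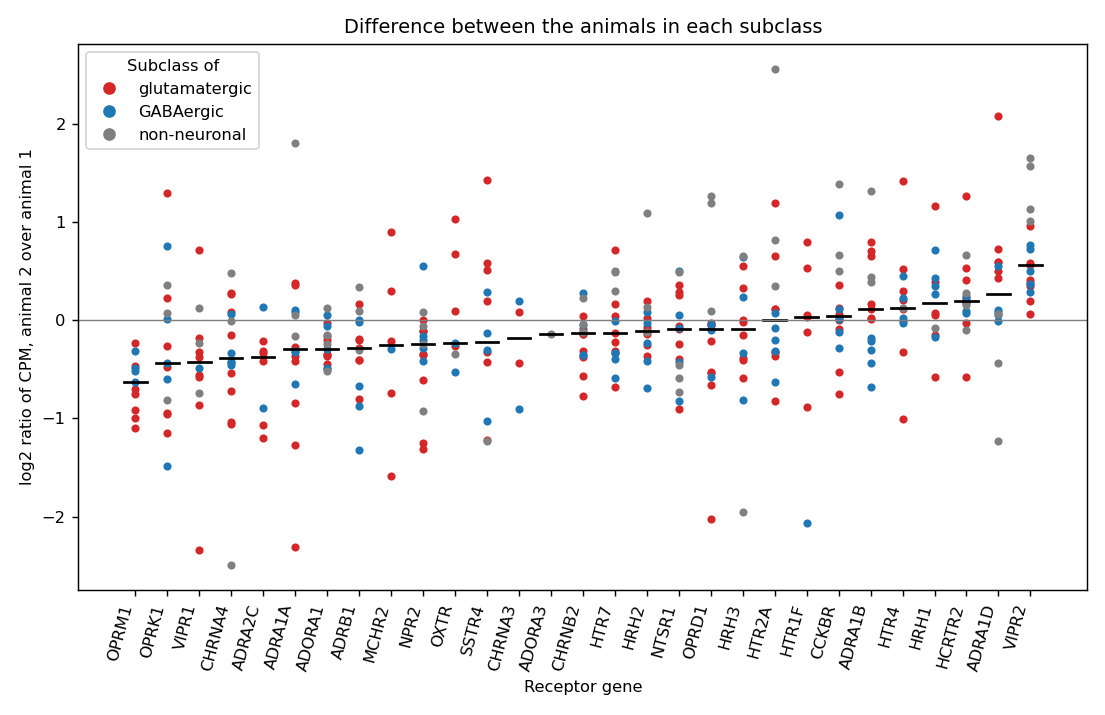
log2 ratio of CPM, animal 2 over animal 1, of receptor genes (1 is not shown) in the subclasses with at least 10 UMIs, colored by class, with the median as a bar. VIPR2 lies above 0 in all 17 subclasses shown and OPRM1 below 0 in all 11.

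Other genes of the same pathways came from lists chosen by function. Of 23 ligand peptides, 16 had a symbol in the files and 11 were tested between neuronal classes. CCK, PENK, PNOC, SST and VIP were higher in GABAergic subclasses (5 genes, against 20.8% of all genes) and ADCYAP1, HCRT, NTS and PDYN lower (4 genes, against 22.0%). SST and VIP name subclasses, so theirs are no independent results. PNOC, the nociceptin precursor, had 138 and 197 CPM in Lamp5 and 118 and 106 in Sst. NTS, the precursor of neurotensin, had 112 and 106 CPM in L5NP and 15.2 or less elsewhere in neurons. CCK had 564 and 587 CPM in Lamp5, 591 and 441 in Frem1 and 449 and 578 in Vip.

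In the lists that follow, counts stand against 20.8% of all genes tested called higher in GABAergic subclasses and 22.0% called lower, and nothing particular to a list is read from them. Of 26 G proteins, receptor kinases and arrestins, 18 were tested between neuronal classes, with 5 higher and 7 lower in GABAergic subclasses. The RGS proteins, which shorten G protein signals, had 12 of 16 tested, with 6 higher (among them RGS8 and RGS10) and 4 lower (among them RGS4). Accessory proteins had 9 of 12 tested, with 4 higher, including LYNX1, which binds nicotinic receptors, and 3 lower, including RIC3, which assists their assembly. Transmitter enzymes and transporters had 7 of 22 tested, with ACHE and BCHE higher and MAOB and SLC22A3 lower. Endocannabinoid and adenosine genes had 8 of 13 tested, with 2 higher and 2 lower. Of 20 related receptors outside the symbol rule 10 were tested, with NPFFR2 higher and the dopamine receptor DRD1 lower in GABAergic subclasses. The median log2 ratio of class-mean CPM ran from -0.04 in the related receptors to 0.67 in the RGS proteins, against 0.11 over all genes tested.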

How the data were processed

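Raw UMI counts per gene and nucleus were deposited by the authors, who aligned reads with Cell Ranger (6.1.1 in the submitters' notes, 7.1.0 in the matrix header), introns included, to ASM229v1 with Ensembl 110 genes extended at the 3′ end by up to 5 kb. The deposited metadata gave a Scrublet doublet score, a fraction per nucleus, and the authors' quality calls (700 to 6500 genes, under 40000 UMIs) and subclass labels. Doublets by Scrublet's own call (798 of those labelled) stayed in. For each animal, counts of a subclass were added up, and the sums entered edgeR 4.0.16 (R 4.3.3: TMM, its low-count filter, quasi-likelihood test, Benjamini-Hochberg at 0.05). Genes with at least 20 CPM in 1 subclass of both animals were named, with the 3 nearest outside. Members and lists were chosen with earlier results of these data known. Pairing rests on the animal that sums have in common: their deviations correlated at 0.00325 to 0.601 (median 0.121, 153 pairs). Alternatives covered size factors, DESeq2 1.42.0, no filter, the animal as a block, doublets removed, labels predicted without the receptors (15 nearest neighbours in the other animal, 30 components), thinning to 1000 UMIs and each animal alone. Python 3.11.15 with scipy 1.17.1 was used for levels and shares. The count tests were tested on simulated data. Coordinates and sequences are not given, since the reference tables used another assembly. A member is counted in the totals and is not reported here.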

Additional observations from a re-analysis of the deposited data

Results flagged for a closer look

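A signal appeared in nuclei that the comparisons did not use. Of the nuclei that passed the quality call, 276 non-neuronal nuclei had been left out by the authors as ambiguous, apart from those left out as doublets. Scrublet called 10 of the 276 doublets, and the part of doublets in the signal was not tested. CHRM2, a Gi-coupled muscarinic receptor, had 32.0 CPM there, 33.2 in animal 1 (13 UMIs) and 30.7 in animal 2 (12 UMIs), against a highest labelled value of 14.0 CPM in Pvalb of animal 1.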

How the results depend on the processing

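With nuclei thinned to 1000 UMIs, fewer receptors passed the filter and the counts fell to 13 between GABAergic and glutamatergic subclasses (33 as reported), 22 among glutamatergic (40), 22 among GABAergic (38) and 11 between neuronal and non-neuronal subclasses (28), and to 111 calls of a receptor higher in a subclass than in the others of its class (199). The count among non-neuronal subclasses (15, 17 as reported) and that of receptors with the same highest subclass in both animals (20) stayed within 1.5 times, as did these counts under the other alternatives. With the animal as a replicate block, 34, 45, 39, 28 and 16 receptors were called in these 5 comparisons, in the order above with non-neuronal subclasses last, and 218 calls were made per subclass. DESeq2's test gave 40, 40, 38, 33 and 18. Of 417 values for the named receptors, 399 kept their side of the threshold and, where called, their direction. ADRB1 changed sign after thinning, to 0.40 (GABAergic minus glutamatergic). OPRM1, not called between these classes (0.75, adjusted p = 0.0586 in edgeR's test), was called under 4 alternatives, the block included (0.72, adjusted p = 0.0125), and was -0.03 after thinning. HTR1F lost that call with predicted labels (-1.17) and after thinning. In 1 animal alone, 0 of 118 values changed sign, and the called values that moved by over 1.5 times were ADRA1B (-0.20), ADRA1D (3.41), HRH3 (-3.36) and NPR2 (0.31) in animal 1, CHRNA3 (2.54) in animal 2, and OXTR (1.29 in animal 1, 2.93 in animal 2). Of these, the values of ADRA1D, HRH3, CHRNA3 and OXTR depend on the prior count of the fit, since the animal had no UMI of the gene in at least 1 neuronal subclass. Endothelial and L6b sums limit what low receptors can show.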

Other observations

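In 730 GABAergic nuclei that the authors left out as ambiguous, 5 of them doublets by Scrublet's call, HTR2C had 74.1 CPM in animal 1 (48 UMIs) and 30.8 in animal 2 (34 UMIs), against at most 4.46 CPM in the labelled GABAergic subclasses and 18.9 in IT_C. HTR3A had 41.7 and 29.0 CPM in these nuclei, above the 30.3 and 19.6 CPM of Frem1. In the 276 ambiguous non-neuronal nuclei NTSR1 had 217 and 284 CPM, below Astro.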
